A study of Homo sapiens with 12 samples.

Results

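Cyclins are the regulatory subunits that switch on the cyclin-dependent kinases (CDKs) of the cell cycle. The genes described here were chosen by symbol, from a list of 10 cyclins with known roles in the cycle or near it, of which 9 were in the table of 4918 genes analysed here: CCND1, CCND3, CCNE1, CCNE2, CCNA2, CCNB1, CCNB2, CCNF and CCNG2. The tenth, CCND2, was not analysed here. The table runs by symbol from A1BG to FAM46B, so every gene list, every share of all genes and every ranking below covers that range of symbols and not the genome. RNA was measured in A375, an established human melanoma cell line, in 12 samples, 3 in each of 4 groups. Control cells are labelled as having no treatment. The other groups had 24 h of SB-3CT, a small-molecule inhibitor of the gelatinases MMP2 and MMP9, of IFNγ (interferon gamma, a cytokine of T cells and natural killer cells), or of both (SB-3CT+IFNγ). All samples are of the same line and the labels do not say whether the 3 samples of a group were separate cultures, so p-values measure the spread between these samples, which may be technical. The study addressed what SB-3CT does to expression in cells under IFNγ, and the same design gives SB-3CT and IFNγ each on its own.

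A cyclin binds a CDK, and the pair is active only while the cyclin is present. The D-type cyclins (CCND1, CCND3) work with CDK4 and CDK6 and link growth signals, among them the MAPK pathway that drives many melanomas, to entry into the cycle. The E-type cyclins (CCNE1, CCNE2) work with CDK2 at the start of S phase and are transcribed by E2F factors. Cyclin A (CCNA2) acts in S phase and G2, and the B-type cyclins (CCNB1, CCNB2) act with CDK1 to start mitosis. Cyclin F (CCNF) is unlike the others, since it binds no CDK and serves as the substrate receptor of an SCF ubiquitin ligase. Cyclin G2 (CCNG2) is an atypical cyclin that is high in cells that leave the cycle.

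The deposited values are log2(FPKM + 1), where FPKM counts fragments per kilobase of a transcript relative to all mapped fragments of the sample, and levels below are FPKM taken back from them. Reads per sample are not given in the sources used here. Relative depth, read from the steps that single reads leave in the lowest values, lay between 87.0% and 150% of the mean of the controls, with no group shallow throughout. CXCL10, a chemokine gene that IFNγ switches on, had a log2 level of 0.02 ± 0.04 (SD, n = 3) in Control, and 0 in each SB-3CT sample. It stood at 6.37 ± 0.07 under IFNγ and at 6.81 ± 0.18 in SB-3CT+IFNγ (SD, n = 3 each). Of 8 melanocyte lineage genes 5 reached an FPKM of 1 (EDNRB, CITED1, ERBB3, CSPG4 and BCAN), and none of the listed markers of other cells that the table holds did (2 of 6 listed for T cells, 2 of 3 each for B cells, macrophages and endothelium, 3 of 3 for fibroblasts and 1 of 2 for epithelium). The lineage genes that did not, DCT, CAPN3 and BIRC7, had mean FPKM of 0.28, 0.25 and 0.32 in Control and lower means in the other groups. The 8 lineage genes summed to an FPKM of 117 to 119.5 in Control, 93.1 to 102.5 with SB-3CT, 91.9 to 95.5 with IFNγ and 64.9 to 70.9 with SB-3CT+IFNγ. These unscaled sums came mostly from ERBB3 and CSPG4, with means of 57.1 and 48.5 in Control. EDNRB had means of 5.83 in Control, 4.57 with SB-3CT, 6.67 with IFNγ and 4.99 with both. In the same order CITED1 had 0.90, 1.23, 1.19 and 0.51, and BCAN 4.9, 5.3, 4.8 and 4.2. The part of the lineage genes in the changes below was not tested.

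The scale of the SB-3CT+IFNγ samples touches each comparison that holds them. Over the 3177 genes whose mean FPKM reached 1, the median log2 change was -0.20 against IFNγ and -0.21 against SB-3CT, while SB-3CT and IFNγ alone shifted it by -0.03 and -0.04. Median ratio scaling, which divides a sample by the median over genes of its ratio to their geometric means, takes this shift out, with factors of 0.871 to 0.886 in SB-3CT+IFNγ and 0.984 to 1.08 elsewhere. Values after this scaling are therefore given beside called changes that it ends, turns or moves by over 1.5 times. In bulk RNA, fewer cells in a phase of the cycle and less RNA of a cyclin per cell cannot be told apart.

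By level the 9 cyclins fell into 3 ranks. CCNB1 and CCND1 were highest, with mean FPKM over the 12 samples of 126 and 114, above 96.1% and 95.6% of the genes in the table. CCND3 (42.8), CCNB2 (38.1) and CCNA2 (25.6) were intermediate. CCNF (11.4), CCNE1 (8.12), CCNE2 (7.07) and CCNG2 (2.09) were low. CCNE2 varied most, with its highest sample 2.33 times its lowest, and CCNB1 least, at 1.23 times.

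**Figure D1:**
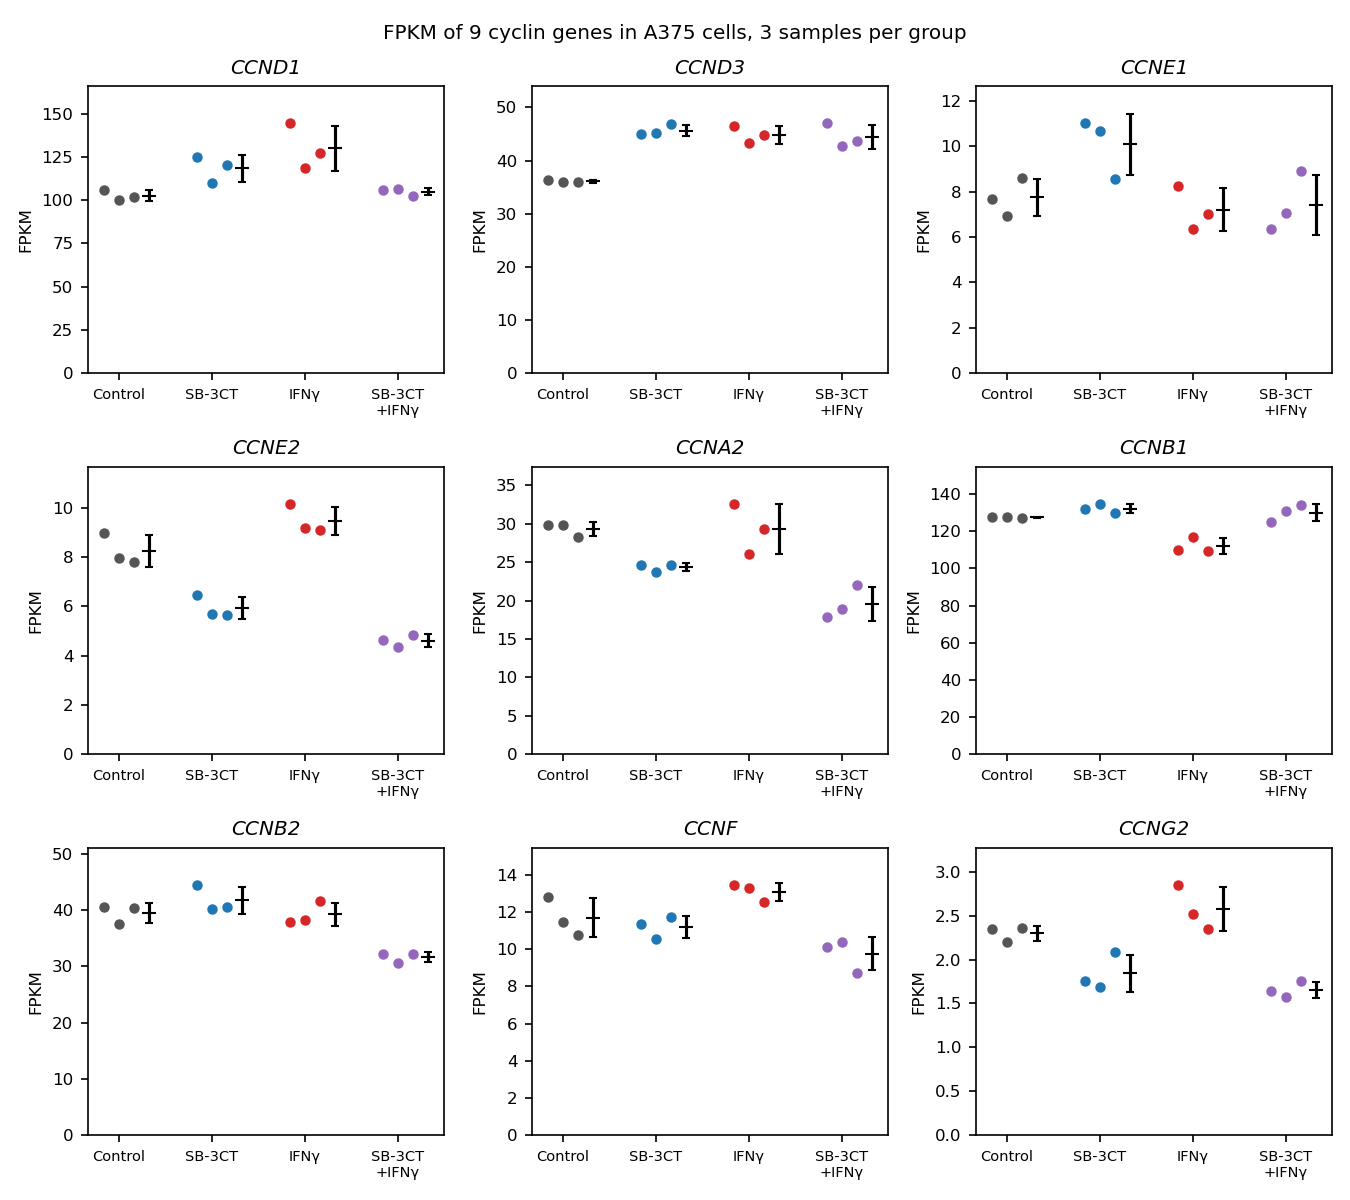
FPKM of 9 cyclins in A375 cells by group, on linear axes that start at 0. Points are samples and bars are the mean ± SD of the 3 samples to their left. CCNE2 sits between 4.35 and 4.85 in SB-3CT+IFNγ and between 9.11 and 10.1 in IFNγ, and CCND3 has its 3 Control samples below the other 9.

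Under IFNγ, SB-3CT was followed by lower levels of most cyclins. CCNE2 fell most, and CCNA2, CCNG2, CCNF, CCNB2 and CCND1 also fell, while CCNB1 rose and CCND3 and CCNE1 did not pass the test. That made 6 of 9 fallen and 1 risen in limma at an adjusted p under 0.05, where 31.5% of all 4918 genes fell and 6.41% rose. The median change of the 9 cyclins was -0.30, beside -0.20 for genes with an FPKM of at least 1. After median ratio scaling 3 had fallen (CCNE2, CCNA2 and CCNG2) and 2 had risen (CCNB1 and CCND3), beside 17.3% and 15.0% of all genes.

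SB-3CT without IFNγ changed fewer cyclins. CCND3 rose, CCNE2 and CCNA2 fell, and the remaining 6 did not pass the test, where 5.37% of all genes rose and 6.87% fell. Median ratio scaling gave 2 risen and 2 fallen, beside 6.85% and 7.26% of all genes, the added rise being CCND1. IFNγ alone raised CCND1 and CCND3 and lowered CCNB1, where 8.46% of all genes rose and 11.0% fell. The fall of CCNB1 was lost after median ratio scaling, which left 2 risen, beside 11.9% risen and 10.7% fallen of all genes.

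IFNγ added to SB-3CT lowered CCNB2, CCNA2, CCNE2 and CCND1, 4 of 9, and raised none in limma or in a per-gene equal-variance test, where 32.7% of all genes fell and 7.85% rose. At an unadjusted p under 0.05 there were 5 such cyclins, CCNE1 being the added one, which was also lower. After median ratio scaling only CCNB2 had fallen and CCNB1 and CCND3 had risen, beside 11.3% lower and 13.2% higher of all genes. The interaction, which asks whether the SB-3CT change differed with and without IFNγ, was below 0 for CCND1, CCNE2, CCNB2, CCND3 and CCNF, 5 of 9, and in limma above 0 for none, or for CCNB1 alone at an unadjusted p under 0.05, where it was below 0 for 17.6% and above 0 for 4.74% of all genes. After scaling it was below 0 for CCND1 and CCNE2 and above 0 for CCNB1, beside 5.75% and 7.69%. These comparisons share samples: IFNγ, SB-3CT, SB-3CT+IFNγ and Control each enter more than one, so their values are given side by side and not as repeats of each other.

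**Figure D2:**
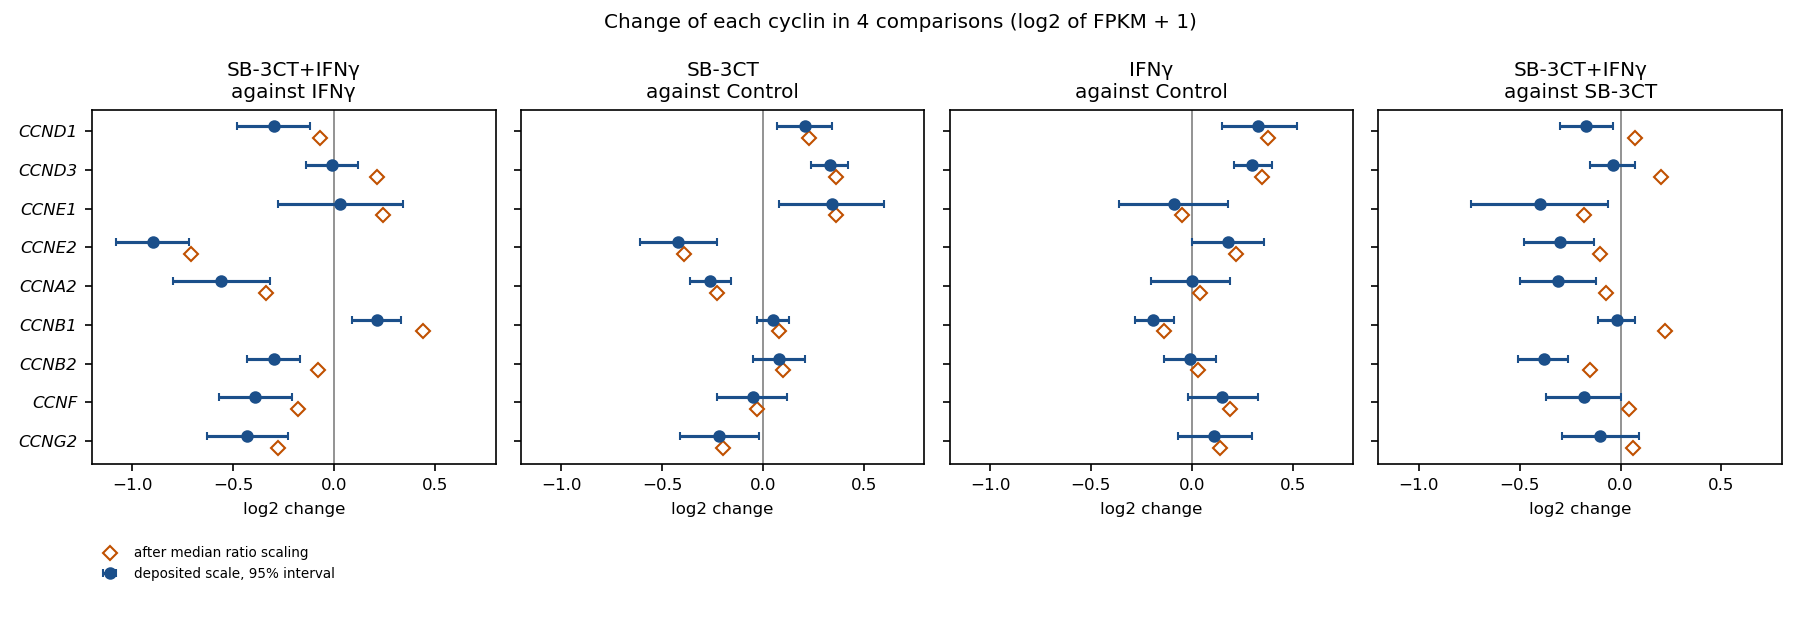
Change of each cyclin on the log2(FPKM + 1) scale in 4 comparisons. Filled circles are limma estimates on the deposited scale with 95% intervals, and open diamonds are the same estimates after median ratio scaling. Against IFNγ and against SB-3CT, the diamonds of SB-3CT+IFNγ lie to the right of the circles for each cyclin, and CCNE2 stays at -0.71 against IFNγ.

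CCND1 encodes cyclin D1, the most abundant of the D-type cyclins here (GRCh37, the hg19 assembly, chromosome 11, 69455924 to 69469242, plus strand, 5 exons in its canonical transcript). Its FPKM was 106, 99.9 and 102 in Control, 125, 110 and 121 in SB-3CT, 144, 118 and 127 in IFNγ, and 106, 106 and 103 in SB-3CT+IFNγ. On the deposited scale each agent alone thus stood above Control in all samples, and both together lay at the level of Control, where the groups overlapped. After median ratio scaling the log2 change from Control was 0.23 with SB-3CT and 0.38 with IFNγ. SB-3CT+IFNγ then differed by 0.07 from SB-3CT and by -0.07 from IFNγ, so its place at the level of Control depended on the scale. It was not tested against Control directly. IFNγ alone raised CCND1 by 0.33 on the log2 scale (SE 0.08, adjusted p = 0.028), a call that was lost without Control replicate 1, 2 or 3 or IFNγ replicate 3 (adjusted p = 0.073, 0.1, 0.098 and 0.082) and in a per-gene equal-variance test (adjusted p = 0.11). With SB-3CT alone the difference was 0.21 (SE 0.06, adjusted p = 0.055). It passed after median ratio scaling (adjusted p = 0.027), with the trend on transcript length removed (0.27, adjusted p = 0.012) and with robust eBayes (adjusted p = 0.049). It also passed among genes of mean FPKM 1 or more (adjusted p = 0.023), but not with quantile normalization (0.15, adjusted p = 0.17).

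Adding SB-3CT to IFNγ gave a CCND1 change of -0.30 (SE 0.08, adjusted p = 0.018). This became -0.07 after median ratio scaling (adjusted p = 0.34) and 0.01 with the trend on transcript length removed (adjusted p = 0.88). It was also lost without IFNγ replicate 3 or SB-3CT+IFNγ replicate 1, 2 or 3 (adjusted p = 0.063, 0.056, 0.06 and 0.076). The per-gene equal-variance test lost the CCND1 call too (adjusted p = 0.089). The fall of 0.17 against SB-3CT (SE 0.05, adjusted p = 0.045) was lost in each scaling, with the replicate block (0.096), without the variance trend (0.052), with 4 groups in one fit (0.064) and in the equal-variance test (0.1), and median ratio scaling turned it to 0.07. Without SB-3CT replicate 1 or 3 or SB-3CT+IFNγ replicate 1, 2 or 3 that fall had an adjusted p of 0.1, 0.13, 0.093, 0.098 and 0.13. The SB-3CT change was lower by 0.51 with IFNγ than without (interaction -0.51, SE 0.10, adjusted p = 0.0073), or by 0.31 after median ratio scaling (-0.31, adjusted p = 0.016), a call kept in all alternatives run.

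CCND3, for cyclin D3 (GRCh37, chromosome 6, 41902672 to 42018095, minus strand), had an FPKM of 36.4, 35.9 and 36.0 in Control, 44.9, 45.2 and 46.8 in SB-3CT, 46.5, 43.2 and 44.7 in IFNγ, and 47.0, 42.7 and 43.7 in SB-3CT+IFNγ. All 9 treated samples were above the 3 Control samples, and the treated groups overlapped with each other. It rose by 0.33 with SB-3CT (SE 0.04, adjusted p = 0.006) and by 0.30 with IFNγ (SE 0.04, adjusted p = 0.0043), and both calls were kept in all alternatives. Adding the second agent gave -0.01 against IFNγ (95% interval -0.14 to 0.12, adjusted p = 0.91) and -0.04 against SB-3CT (-0.15 to 0.07, adjusted p = 0.57), and after median ratio scaling 0.21 and 0.20 (adjusted p = 0.014 and 0.032). The interaction of -0.34 (SE 0.06, adjusted p = 0.0062) was -0.14 and lost after that scaling (adjusted p = 0.15).

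The ratio of 2 genes within a sample does not change when the whole sample is multiplied by a factor, as in median ratio scaling, but it can change with quantile normalization and with removal of the length trend, under which ratios were not computed. Of 8 such pairs, each was compared in 4 ways, 32 tests in all, by a two-sided exact permutation test whose smallest p with 3 samples against 3 is 0.1. Most of the 32 tests gave that p, without overlap between the groups, so it does not set the pairs named below apart. Among them were CCNE2 to CCNE1 and CCNB1 to CCNB2 for IFNγ against Control, with log2 differences of 0.31 and -0.18. CCND1 was 2.84 times CCND3 in Control, 2.59 times with SB-3CT, 2.89 times with IFNγ and 2.36 times with SB-3CT+IFNγ (geometric means, n = 3). On the log2 scale the ratio was lower by 0.29 with SB-3CT+IFNγ than with IFNγ (difference -0.29), with no overlap between the groups and an exact permutation p of 0.1, the smallest possible, adjusted to 0.18 over the 32 tests. With the length trend removed the changes of CCND1 and CCND3 in that comparison were 0.01 and 0.08, and with quantile normalization CCND3 stood at 0.07.

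CCNE2, for cyclin E2, was the cyclin with the largest fall. Its FPKM was 9.00, 7.98 and 7.79 in Control, 6.45, 5.67 and 5.67 in SB-3CT, 10.1, 9.18 and 9.11 in IFNγ, and 4.62, 4.35 and 4.85 in SB-3CT+IFNγ. None of the 4 groups overlapped with another, in the order SB-3CT+IFNγ, SB-3CT, Control and IFNγ. Adding SB-3CT to IFNγ lowered it by 0.90 on the log2(FPKM + 1) scale (log2 change -0.90, SE 0.08, adjusted p = 0.0019), which understates the change of a gene at this level. It was -0.71 after median ratio scaling, and the call was kept in all alternatives. Of the 9 cyclins it was the one whose direction and call held in each alternative of that comparison.

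SB-3CT alone gave a CCNE2 change of -0.42 (SE 0.08, adjusted p = 0.024), lost without Control replicate 1, 2 or 3 or SB-3CT replicate 2 or 3 (adjusted p = 0.077, 0.083, 0.069, 0.086 and 0.098) and in the per-gene equal-variance test (0.086). IFNγ alone gave 0.18 (95% interval 0.00 to 0.36, adjusted p = 0.15). The change from SB-3CT to SB-3CT+IFNγ was -0.30 (SE 0.07, adjusted p = 0.018) and -0.10 after median ratio scaling (adjusted p = 0.32), and the other scalings lost it too. It was also lost with the replicate block (adjusted p = 0.06) and without SB-3CT+IFNγ replicate 1 or 2 (adjusted p = 0.051 and 0.063). The interaction of -0.48 (SE 0.10, adjusted p = 0.01) was lost with quantile normalization (-0.25, adjusted p = 0.1). Exons of the canonical CCNE2 transcript overlap those of INTS8 and of a long noncoding RNA on the other strand, and the sources used here do not say whether strand was used in counting, so reads of the genes cannot be told apart where they overlap.

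CCNE1, for cyclin E1 (GRCh37, chromosome 19, 30302898 to 30315219, plus strand), passed the test in none of these comparisons. Its FPKM was 7.68, 6.94 and 8.61 in Control, 11.0, 10.7 and 8.55 in SB-3CT, 8.26, 6.36 and 7.02 in IFNγ, and 6.35, 7.05 and 8.90 in SB-3CT+IFNγ. Its groups overlapped in all 4 comparisons of 2 groups. With SB-3CT the difference was 0.34 (95% interval 0.08 to 0.60, adjusted p = 0.086), and from SB-3CT to SB-3CT+IFNγ it was -0.40 (-0.74 to -0.06, adjusted p = 0.065). With only genes whose mean FPKM reached 1 in the test, both passed (adjusted p = 0.03 and 0.013). The second also passed with robust eBayes (0.034), with 4 groups in one fit (0.028) and without SB-3CT+IFNγ replicate 3 (-0.52, adjusted p = 0.035). After median ratio scaling they were 0.36 and -0.18 (adjusted p = 0.057 and 0.42), and neither passed in the other scalings.

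The ratio of CCNE2 to CCNE1 separated the samples by SB-3CT. On the log2 scale it was 0.23, 0.20 and -0.14 in Control and 0.30, 0.53 and 0.38 with IFNγ, against -0.77, -0.91 and -0.59 with SB-3CT and -0.46, -0.70 and -0.88 with SB-3CT+IFNγ. As a plain ratio CCNE2 stood at 1.07 times CCNE1 in Control, 1.32 times with IFNγ, 0.591 times with SB-3CT and 0.626 times with SB-3CT+IFNγ. SB-3CT changed it by -0.85 without IFNγ and by -1.08 with IFNγ, each with an exact permutation p of 0.1, adjusted to 0.18. Between SB-3CT and SB-3CT+IFNγ the difference was 0.08 and the groups overlapped (exact permutation p = 0.6). The ratio of CCND1 to CCNE2 was 12.4 in Control, 13.7 with IFNγ, 20.0 with SB-3CT and 22.8 with SB-3CT+IFNγ, a log2 difference of 0.68 for SB-3CT without IFNγ and 0.74 with it (no overlap, exact permutation p = 0.1 each).

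**Figure D3:**
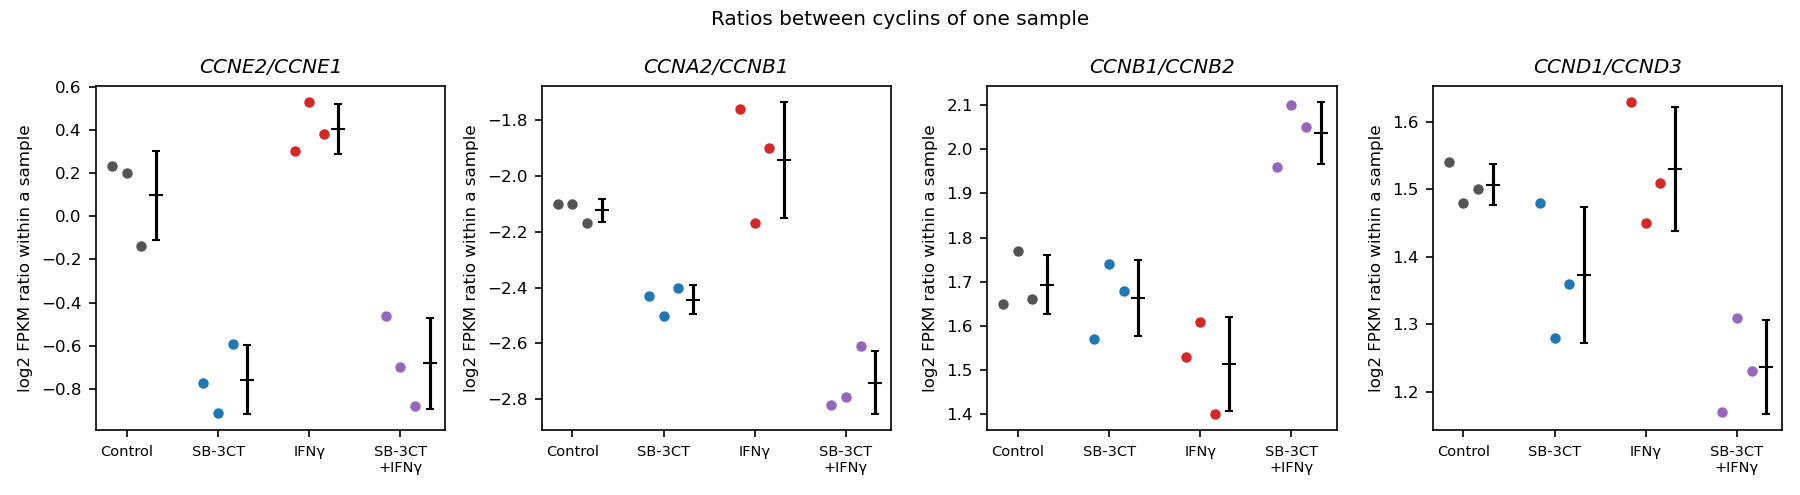
Log2 ratio of the FPKM of 2 cyclins within each sample, by group. Points are samples, bars are the mean ± SD of 3 samples, and the axes do not start at 0. In the leftmost panel all 6 samples with SB-3CT lie below all 6 without, and in the panel of CCNB1 to CCNB2 the SB-3CT+IFNγ samples, at 1.96 to 2.10, lie above the other 9.

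Promoters were read next for the cyclins of S phase, G2 and mitosis, because genes of this class share known elements: CCAAT boxes, bound by NF-Y, and the CHR (cell cycle genes homology region), bound by the DREAM and MuvB complexes. The windows run from 250 bases before to 50 after each RefSeq start (GRCh38.p14). CCAAT, on either strand, is found in 34.6% of all 35116 windows, and the CHR core (TTTGAA or TTCGAA, either strand) in 16.4%. The CCNA2 window holds 1 CCAAT, CCNB1 2, and CCNB2 and CCNF 4 each, and 3 or more occur in 3.26% of all windows. The CHR core occurs in CCNB2 at -29 from the start and in CCNF at -233 and -85, and in no other cyclin window. None of the windows of these cyclins, of CCND3, of CCNE1 or of CCNG2 holds the E2F-type letters searched (TTTGGCGC, TTTCCCGC, TTTCGCGC or TTTGCCGC), which 3.31% of all windows hold. Absence of these letters says nothing of a factor's binding. CCNE1 and CCNG2 hold none of the motifs, the 3 starts of CCND3 hold 0, 1 and 1 CCAAT, and CCND1 and CCNE2 had no entry. The stretches with the matches are printed below 5′ to 3′ on the gene's strand, with the CCAAT letters, or the same read on the opposite strand, and the CHR core in capitals, to show how many such letters each of these promoters holds and where. Their bearing on the levels was not tested.
CCNA2, chr4:121823925-121823949, minus strand: gagcgctttcATTGGtccatttcaa
CCNB1, chr5:69167053-69167109, plus strand: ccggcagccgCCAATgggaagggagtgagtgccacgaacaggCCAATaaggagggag
CCNB2, chr15:59104896-59105132, plus strand: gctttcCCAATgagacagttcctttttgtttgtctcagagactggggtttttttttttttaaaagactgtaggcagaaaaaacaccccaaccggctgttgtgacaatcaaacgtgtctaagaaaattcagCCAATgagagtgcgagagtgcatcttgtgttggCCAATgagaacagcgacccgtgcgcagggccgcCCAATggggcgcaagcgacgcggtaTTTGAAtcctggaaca
CCNF, chr16:2429197-2429377, plus strand: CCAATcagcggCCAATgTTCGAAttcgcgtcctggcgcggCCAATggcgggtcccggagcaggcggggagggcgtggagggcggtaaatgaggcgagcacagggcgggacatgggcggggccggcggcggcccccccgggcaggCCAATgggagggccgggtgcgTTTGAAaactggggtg

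CCNA2, for cyclin A2 (GRCh37, chromosome 4, 122737599 to 122745038, minus strand), had an FPKM of 29.8, 29.8 and 28.2 in Control, 24.6, 23.8 and 24.6 in SB-3CT, 32.5, 26.0 and 29.4 in IFNγ, and 17.8, 18.9 and 22.0 in SB-3CT+IFNγ. The 6 samples with SB-3CT lay below the 6 without it, and the 3 with both agents were lowest. With IFNγ present SB-3CT lowered it by 0.56 (log2 change -0.56, SE 0.10, adjusted p = 0.0055), or by 0.34 after median ratio scaling (-0.34, adjusted p = 0.028), and the call was lost in the per-gene equal-variance test alone (adjusted p = 0.051). Without IFNγ the change was -0.26 (SE 0.04, adjusted p = 0.017). That call was lost with all 4 groups in one fit (adjusted p = 0.058), in the per-gene equal-variance test (0.055) and without Control replicate 1 or 2 or SB-3CT replicate 2 or 3 (0.063, 0.072, 0.07 and 0.067).

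IFNγ alone left CCNA2 at a difference of 0.00 with a 95% interval of -0.20 to 0.19 (adjusted p = 0.98). From SB-3CT to SB-3CT+IFNγ the change was -0.31 (SE 0.08, adjusted p = 0.022) but -0.07 after median ratio scaling (adjusted p = 0.58). It was lost in the other scalings, in the equal-variance test (0.061) and without SB-3CT replicate 1, 2 or 3 or SB-3CT+IFNγ replicate 1 or 2 (adjusted p = 0.069, 0.052, 0.073, 0.053 and 0.075). The interaction was -0.30 (SE 0.12, adjusted p = 0.086). It passed without IFNγ replicate 2 or SB-3CT+IFNγ replicate 3 (adjusted p = 0.021 and 0.037) and among genes of mean FPKM 1 or more (0.0497). It shrank to -0.11, -0.17 and -0.12 with median ratio scaling, quantile normalization and the length trend removed (adjusted p = 0.56, 0.35 and 0.42). Exons of CCNA2 overlap those of EXOSC9 on the other strand.

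CCNB1, for cyclin B1 (GRCh37, chromosome 5, 68462962 to 68474072, plus strand), had an FPKM of 128, 128 and 127 in Control, 132, 134 and 130.0 in SB-3CT, 110, 117 and 110 in IFNγ, and 125, 131 and 134 in SB-3CT+IFNγ. The IFNγ samples were below the other 9, and SB-3CT+IFNγ overlapped with Control and with SB-3CT. Adding SB-3CT to IFNγ raised it by 0.21 (SE 0.05, adjusted p = 0.017), or 0.44 after median ratio scaling. The call was lost with quantile normalization (0.15, adjusted p = 0.073) and without IFNγ replicate 3 or SB-3CT+IFNγ replicate 2 or 3 (adjusted p = 0.067, 0.061 and 0.066).

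IFNγ alone lowered CCNB1 by 0.19 (log2 change -0.19, SE 0.04, adjusted p = 0.024). This was -0.14 after median ratio scaling (adjusted p = 0.17) and was lost in the other scalings too. It was also lost without Control replicate 1, 2 or 3 or IFNγ replicate 1 or 3 (adjusted p = 0.082, 0.082, 0.082, 0.051 and 0.099) and with the replicate number as a block (0.053). SB-3CT alone gave 0.05 (95% interval -0.03 to 0.13, adjusted p = 0.39). From SB-3CT to SB-3CT+IFNγ the difference was -0.02 (-0.11 to 0.07, adjusted p = 0.66), and 0.22 after median ratio scaling (adjusted p = 0.02). The interaction of 0.16 (SE 0.06, adjusted p = 0.062) passed after median ratio scaling (0.36, adjusted p = 0.016) and without IFNγ replicate 2 or SB-3CT+IFNγ replicate 1 (adjusted p = 0.018 and 0.044). It was 0.27 with the length trend removed (adjusted p = 0.0084) and 0.11 with quantile normalization (adjusted p = 0.29).

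CCNB2, for cyclin B2 (GRCh37, chromosome 15, 59397325 to 59417244, plus strand), moved the other way. Its FPKM was 40.7, 37.5 and 40.4 in Control, 44.4, 40.3 and 40.5 in SB-3CT, 37.9, 38.3 and 41.6 in IFNγ, and 32.2, 30.6 and 32.3 in SB-3CT+IFNγ. The SB-3CT+IFNγ samples stood below the other 9, which overlapped with each other. It fell by 0.30 against IFNγ (log2 change -0.30, SE 0.06, adjusted p = 0.0058) and by 0.38 against SB-3CT (-0.38, SE 0.05, adjusted p = 0.0023). The first was lost after median ratio scaling (-0.08, adjusted p = 0.39) and the second shrank to -0.15 (adjusted p = 0.047) and stayed a call there and in the other alternatives. The interaction of -0.38 (SE 0.08, adjusted p = 0.0084) was lost with median ratio scaling (-0.18, adjusted p = 0.14) and quantile normalization (-0.24, adjusted p = 0.062). SB-3CT alone and IFNγ alone gave 0.08 (95% interval -0.05 to 0.21) and -0.01 (-0.14 to 0.12).

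The mitotic cyclins also differed in their ratios, which a factor for a whole sample does not change. CCNB1 was 3.23 times CCNB2 in Control, 3.17 times with SB-3CT, 2.86 times with IFNγ and 4.10 times with SB-3CT+IFNγ. The log2 ratio was higher by 0.52 with SB-3CT+IFNγ than with IFNγ and by 0.37 than with SB-3CT, with no overlap and an exact permutation p of 0.1 in both (adjusted 0.18). CCNA2 stood at 0.229 times CCNB1 in Control, 0.184 times with SB-3CT, 0.26 times with IFNγ and 0.15 times with SB-3CT+IFNγ. Its log2 ratio differed by -0.32 for SB-3CT without IFNγ and by -0.80 with IFNγ, again without overlap and at the same p. CCNE2 to CCNA2, both of S phase, differed by -0.21 and -0.46 in these comparisons, and CCNG2 to CCNA2 by -0.06 and -0.05, with overlap in both (exact permutation p = 0.6 each).

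CCNF (GRCh37, chromosome 16, 2479395 to 2508855, plus strand, with exons that overlap long noncoding RNAs on the other strand) ranged from 10.8 to 12.8 FPKM in Control, 10.6 to 11.7 with SB-3CT, 12.5 to 13.4 with IFNγ and 8.75 to 10.4 with SB-3CT+IFNγ. It fell by 0.39 from IFNγ to SB-3CT+IFNγ (log2 change -0.39, SE 0.08, adjusted p = 0.0073), lost with median ratio scaling, quantile normalization and removal of the length trend (-0.18, -0.19 and -0.08, adjusted p = 0.1, 0.11 and 0.43). The interaction of -0.34 (SE 0.11, adjusted p = 0.045) was lost in the same scalings (-0.15, -0.16 and -0.09) and without any 1 of 9 of the 12 samples (adjusted p = 0.053 to 0.098; kept without Control replicate 1, SB-3CT replicate 2 or SB-3CT+IFNγ replicate 2). The ratio of CCNF to CCNB1 differed by -0.64 in the first comparison and by 0.35 for IFNγ against Control, without overlap (exact permutation p = 0.1 each).

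CCNG2 (GRCh37, chromosome 4, 78078360 to 78354542, plus strand) was low, at 2.20 to 2.36 FPKM in Control, 1.69 to 2.09 with SB-3CT, 2.35 to 2.85 with IFNγ and 1.58 to 1.75 with SB-3CT+IFNγ. The last group lay below Control and IFNγ and overlapped with SB-3CT. Its fall of 0.43 against IFNγ (log2 change -0.43, SE 0.09, adjusted p = 0.0077) was -0.28 after median ratio scaling, where it was kept, and was lost with quantile normalization and removal of the length trend (adjusted p = 0.16 and 0.54). SB-3CT alone gave -0.22 (95% interval -0.41 to -0.02, adjusted p = 0.13). CCNG2, CCND1 and CCNF, the 3 whose calls against IFNγ were lost when the length trend was removed, have the longest canonical transcripts of the 9 (5471, 4238 and 4230 bases). The falls that were kept belong to transcripts of 2748 (CCNA2), 2674 (CCNE2) and 1488 bases (CCNB2). The part of length in these changes was not tested further.

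Of the kinases that bind these cyclins, CDK1, CDK2, CDK4 and CDK6, 0 of 4 passed the test for SB-3CT+IFNγ against IFNγ in limma, none at an unadjusted p under 0.05 and none in the equal-variance test, and 2 rose after median ratio scaling. CDK6 varied widely there, at 7.51 ± 4.70 FPKM with IFNγ and 5.2 ± 0.48 with both (SD, n = 3), a change of -0.26 (SE 0.43, adjusted p = 0.68). On the deposited scale CDK6 passed as a fall without IFNγ replicate 1, and CDK2 without IFNγ replicate 2. Of all genes 31.5% fell and 6.41% rose there, and 17.3% and 15.0% after scaling. With SB-3CT alone 1 of the 4 rose and 2 fell, where 5.37% of all genes rose and 6.87% fell. From SB-3CT to SB-3CT+IFNγ 2 of the 4 fell, where 32.7% of all genes fell and 7.85% rose. With SB-3CT alone CDK2, the partner of cyclins E and A, rose by 0.51 (SE 0.05, adjusted p = 0.0025) from an FPKM of 52.9 ± 1.26 to 75.8 ± 3.70 (SD, n = 3). CDK1, the mitotic kinase, gave -0.33 (SE 0.07, adjusted p = 0.031), a call lost without Control replicate 1, 2 or 3 or SB-3CT replicate 2 or 3 (adjusted p = 0.12, 0.12, 0.1, 0.057 and 0.091), with the replicate block (0.061) and in the equal-variance test (0.11). Adding IFNγ to SB-3CT lowered CDK2 by 0.51 (log2 change -0.51, SE 0.04, adjusted p = 0.00059), and by 0.27 after median ratio scaling (-0.27, adjusted p = 0.0025). CDK6, a partner of the D-type cyclins, gave -0.50 with SB-3CT alone (SE 0.13, adjusted p = 0.047), from an FPKM of 12.9 ± 0.789 to 8.95 ± 1.89 (SD, n = 3). That call was lost without Control replicate 1, 2 or 3 or SB-3CT replicate 2 or 3 (adjusted p = 0.16, 0.14, 0.14, 0.15 and 0.17), without the variance trend (0.058), with 4 groups in one fit (0.4) and in the equal-variance test (0.15). From SB-3CT to SB-3CT+IFNγ CDK6 gave -0.67 (SE 0.14, adjusted p = 0.012), a call lost with 4 groups in one fit (0.16) and in the equal-variance test (0.078).

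Among 7 CDK inhibitor genes, 2 rose and 4 fell with SB-3CT+IFNγ against IFNγ, and 3 rose and 3 fell after median ratio scaling. Of all genes 6.41% rose and 31.5% fell in that comparison, and 15.0% and 17.3% after scaling. CDKN1A (p21) rose by 0.31 (SE 0.06, adjusted p = 0.006), from 274 ± 9.53 to 340.1 ± 14.7 FPKM (SD, n = 3), and by 0.54 after median ratio scaling, a call lost with quantile normalization (0.04, adjusted p = 0.75). CDKN1B (p27) and CDKN2C (p18), the second an inhibitor of CDK4 and CDK6, fell by 0.64 and 0.61 (log2 changes -0.64 and -0.61, SE 0.09 and 0.05, adjusted p = 0.0025 and 0.0019), and gave -0.43 and -0.39 after median ratio scaling. CDKN1A also rose with SB-3CT alone, by 0.38 (SE 0.05, adjusted p = 0.006), fell with IFNγ alone, by 0.52 (-0.52, SE 0.04, adjusted p = 0.00082), and fell from SB-3CT to SB-3CT+IFNγ, by 0.60 (-0.60, SE 0.05, adjusted p = 0.00055), or 0.35 after median ratio scaling (-0.35).

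Of 9 CDK activators and adaptors, 2 rose and 2 fell with SB-3CT+IFNγ against IFNγ, and 5 rose after median ratio scaling. The shares of all genes were 6.41% risen and 31.5% fallen, and 15.0% and 17.3% after scaling. The rises on the deposited scale were CKS1B and CKS2, small subunits that bind CDKs. CKS1B rose by 0.52 (SE 0.05, adjusted p = 0.0021) to 433 ± 3.58 FPKM (SD, n = 3). CKS2 rose by 0.64 (SE 0.13, adjusted p = 0.0076), a call lost without IFNγ replicate 3 (0.60, adjusted p = 0.0502). Both also rose against SB-3CT, by 0.54 and 0.66 (SE 0.04 and 0.06, adjusted p = 0.00036 and 0.00078). CABLES1, an adaptor of CDKs, fell with IFNγ alone (-0.62, SE 0.10, adjusted p = 0.0087) and on adding IFNγ to SB-3CT (-0.91, SE 0.09, adjusted p = 0.0011), as did CDK7, the catalytic part of the CDK-activating kinase, with IFNγ alone (-0.38, SE 0.05, adjusted p = 0.0032).

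Of 20 genes for parts of the ligases that degrade cyclins, 4 rose and 9 fell with SB-3CT+IFNγ against IFNγ, and 8 rose and 4 fell after median ratio scaling, beside 31.5% fallen and 6.41% risen of all genes, and 17.3% and 15.0% after scaling. Within the anaphase-promoting complex CDC27 fell by 0.72 (log2 change -0.72, SE 0.11, adjusted p = 0.0032) while CDC26 rose by 0.45 (SE 0.05, adjusted p = 0.0021). CDC20, its activator in mitosis, rose with SB-3CT alone by 0.32 (SE 0.04, adjusted p = 0.0067). Of 18 other cyclin-family genes 8 fell and 0 rose in limma against IFNγ (13 and 1 at an unadjusted p under 0.05, 3 and 0 in the equal-variance test), and 2 fell and 2 rose after median ratio scaling. CCNI fell by 0.56 (-0.56, SE 0.07, adjusted p = 0.0021), or 0.34 after scaling (-0.34), and CCNG1, the relative of CCNG2 that p53 induces, fell with IFNγ alone by 0.44 (-0.44, SE 0.04, adjusted p = 0.0012).

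Most listed genes of the phases in which these cyclins act fell with SB-3CT+IFNγ against IFNγ, where 31.5% of all genes fell, and 17.3% after median ratio scaling. Of 22 G1/S and S-phase genes 20 fell and 0 rose in limma (20 and 0 at an unadjusted p under 0.05, 16 and 0 in the equal-variance test), with a median of -0.52, and 16 fell after median ratio scaling. ATAD2, a chromatin factor, fell from 10.7 ± 1.29 to 4.82 ± 0.535 FPKM (SD, n = 3, adjusted p = 0.0021), and CLSPN, of the replication checkpoint, fell by 0.90 (log2 change -0.90, SE 0.11, adjusted p = 0.0022). Of 25 G2/M genes 19 fell and 0 rose in limma (20 and 0, and 15 and 0), with a median of -0.66, and 18 fell and 1 rose after scaling. CENPF, a kinetochore protein, and ECT2, a factor of cytokinesis, fell by 0.95 and 0.89 (-0.95 and -0.89, SE 0.10 each, adjusted p = 0.0021 each). Of 8 E2F genes 6 fell, 2 after scaling, with E2F7 and E2F8, the atypical repressors, at -0.62 and -0.65 (SE 0.09 and 0.11, adjusted p = 0.0029 and 0.0041). Of the cyclins of these phases, CCNB1 rose and CCNE1 did not pass the test.

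With IFNγ alone, where 8.46% of all genes rose and 11.0% fell, 10 of 22 G1/S and S-phase genes rose and 0 fell, 3 of 8 E2F genes rose and 0 fell, and 2 of 25 G2/M genes, a share near that of all genes, rose and 0 fell in limma, becoming 15, 5 and 10 risen after median ratio scaling, with 1 G1/S gene fallen, beside 11.9% risen and 10.7% fallen of all genes. At an unadjusted p under 0.05, 14, 4 and 9 rose and 1, 0 and 1 fell, and the equal-variance test called 1, 2 and 1 risen and none fallen. CDT1, a licensing factor of replication, rose by 0.50 and E2F7 by 0.48 (SE 0.07 and 0.06, adjusted p = 0.0048 and 0.0042). Of CCNE1, CCNE2, CCNA2, CCNB1, CCNB2 and CCNF, CCNB1 alone passed the test in that comparison, as a fall. With SB-3CT alone 1 of 22 G1/S genes rose and 2 fell, and 1 of 25 G2/M genes rose and 5 fell. Of all genes 5.37% rose and 6.87% fell in that comparison. CDT1 rose by 0.54 there (SE 0.06, adjusted p = 0.006) and ANLN, of the cleavage furrow, gave -0.52 (SE 0.10, adjusted p = 0.021), lost without Control replicate 1, 2 or 3 or SB-3CT replicate 2 or 3 (adjusted p = 0.09, 0.091, 0.091, 0.078 and 0.1). The equal-variance test called no fall in either list for SB-3CT alone. From SB-3CT to SB-3CT+IFNγ, 7 of 22 G1/S genes and 5 of 25 G2/M genes fell and 1 G1/S gene rose. Of all genes 32.7% fell and 7.85% rose there, so neither list passed that share of falls. None of the falls in these lists was called after median ratio scaling, where 11.3% of all genes fell and 13.2% rose.

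MAPK output genes, which report the pathway upstream of cyclin D1, were the last list. Of 9, 6 fell and 0 rose with SB-3CT+IFNγ against IFNγ in limma (4 fallen and 2 risen after median ratio scaling), and 8 fell and 0 rose against SB-3CT (5 fallen after scaling). Of all genes 31.5% and 32.7% fell in these comparisons, and 17.3% and 11.3% after scaling. At an unadjusted p under 0.05, 7 and 9 fell and none rose, and the equal-variance test called 4 and 8 fallen and none risen. ETV1, a transcription factor, fell by 0.82 in the first (log2 change -0.82, SE 0.10, adjusted p = 0.0021) and DUSP4, a MAPK phosphatase, by 0.65 in the second (-0.65, SE 0.04, adjusted p = 0.00024), or 0.41 after scaling (-0.41). With SB-3CT alone 3 rose and 2 fell, and with IFNγ alone 2 fell and 0 rose in limma (4 and 0 at an unadjusted p under 0.05, none in the equal-variance test). Of all genes 5.37% rose and 6.87% fell with SB-3CT alone, and 8.46% rose and 11.0% fell with IFNγ alone.

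**Figure D4:**
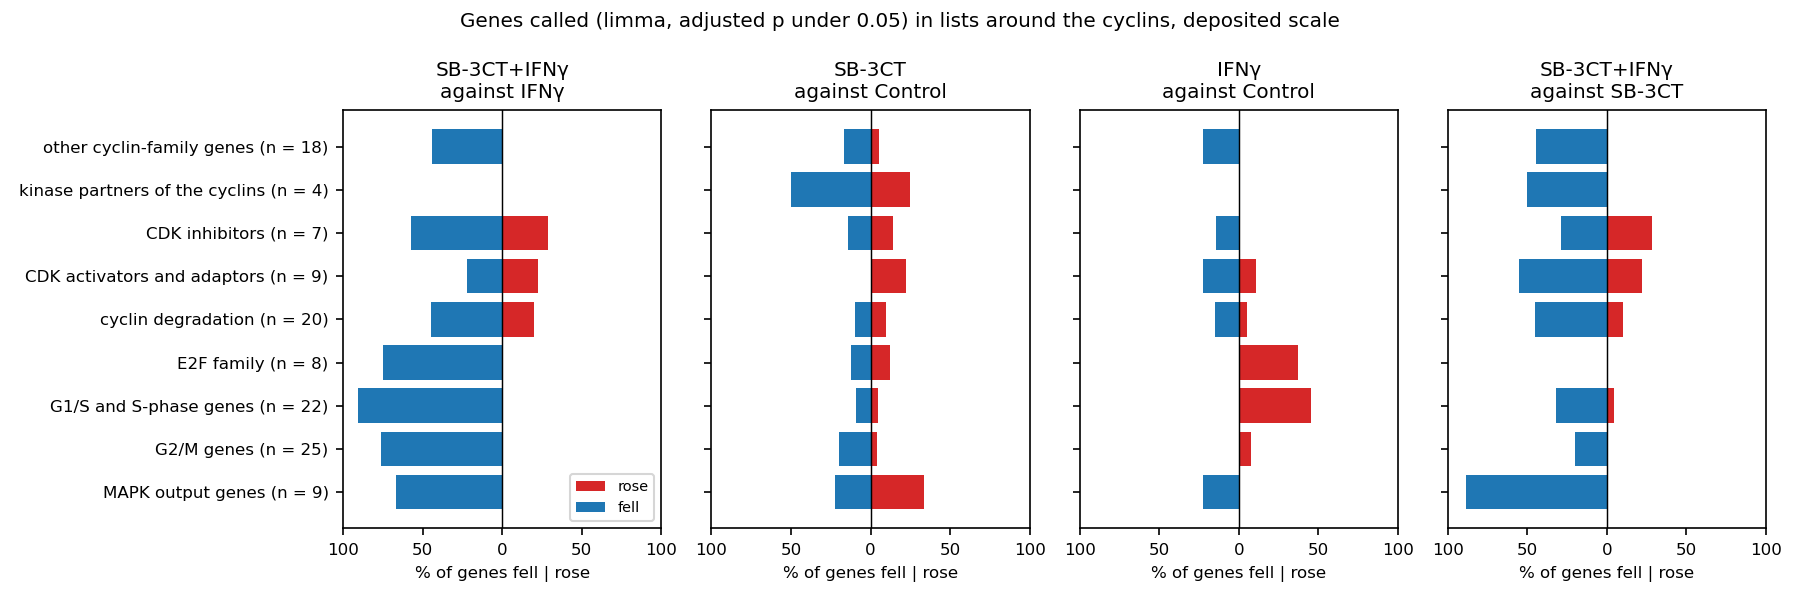
Share of each list's genes called in limma at an adjusted p under 0.05 on the deposited scale, in 4 comparisons. Bars to the left are genes that fell and bars to the right genes that rose, in percent of the list's genes in the table. For SB-3CT+IFNγ against IFNγ the bar of the G1/S and S-phase list stands for 20 of 22 genes and that of the G2/M list for 19 of 25, and the kinase partners have no bar.

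Across the 12 samples the pattern of each cyclin was compared with the 3176 other genes of the table (A1BG to FAM46B) with a mean FPKM of 1 or more by Pearson's r of log2 values, as a description over samples that share 4 group means. CCNE2 was most like ANGPT1 and AASS (r = 0.98 each, and 0.98 and 0.97 after median ratio scaling). CCNA2 was most like DUSP6 and DPP8 (r = 0.98 each, and 0.97 and 0.95). CCND3 was most like DFNA5 and ACOT7 (0.97 and 0.95), CCNB1 like C11orf98 and CRIPT (0.95 and 0.93), CCND1 like CIT and ELMSAN1 (0.95 each) and CCNG2 like DENND6A and CTBP1-AS2 (0.95 and 0.94). CCNE1 was most like DYRK3 (0.93) and CCDC142 (0.83). Likeness depended on scaling for CCNB2, whose r with DCAF16 and BBS1 went from 0.96 and 0.95 to 0.66 and 0.72, and for CCNF, whose r with C4orf46 and AK4 went from 0.91 each to 0.78 and 0.74. Between cyclins, CCNE2 and CCNA2 had an r of 0.92 (0.88 after scaling), and CCNA2 and CCNB1 one of -0.51 (-0.75).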

How the data were processed

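RNA of 12 A375 samples (4 groups of 3, by GEO's labels) was sequenced in paired ends by the study. Per the methods and the processing notes, the authors aligned reads to hg19 with HISAT2 2.0.5 and computed FPKM with StringTie 1.3.3. The authors' deposited values are log2(FPKM + 1): none passes 12.16, and taken back to FPKM they sum to 1.219e+05 to 1.297e+05 per sample. They were tested as they stand. No filter was applied, and 0 columns of per-sample values were left unused. Read totals are not given in the sources used here, so no counting error is given, and precision rests on the spread of 3 samples. On this scale the change of a low gene is understated.

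limma 3.58.1 in R 4.3.3 (lmFit, eBayes with trend, unpaired) was fitted to the 3 + 3 samples of each comparison, and the interaction to all 12, with Benjamini-Hochberg adjustment over 4918 genes and calls at an adjusted p under 0.05. Simulated data were used to test the code. Pair ratios used exact permutation in scipy 1.17.1. The alternatives were a pseudocount of 0.1, genes of mean FPKM 1 or more, median ratio scaling, quantile normalization, removal of the trend with transcript length (summed FPKM kept), the replicate number as a block, eBayes without trend or robust, all 4 groups in one fit, Student's test of equal variance per gene on FPKM (the test named in the study's methods, here with adjusted p and no fold limit), and each sample left out. Lengths came from GENCODE release 44 on GRCh37, and 4428 genes (90.0%) matched by symbol. The rest were left out where length was used.

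The members, lists and tests were chosen with earlier results of these data known. The rule for names took all members, and from each list and comparison of 2 groups at most the 2 largest rises and 2 largest falls with an adjusted p under 0.05 and a mean FPKM of at least 1, besides the CDK partners, CDKN1A, CDKN1B and CXCL10, and the 2 genes most like each cyclin. The list genes named are a part of those, picked after their values were seen. Promoters are RefSeq windows.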

Additional observations from a re-analysis of the deposited data

Results flagged for a closer look

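For 5 cyclins the change made by SB-3CT differed with and without IFNγ by the interaction term of limma over all 12 samples, as the change with IFNγ minus the change without it on the log2 scale. CCND1 gave -0.51 (adjusted p = 0.0073), with changes of -0.30 and 0.21. CCNE2 gave -0.48 (adjusted p = 0.01), with changes of -0.90 and -0.42, the same direction in both. CCNB2 gave -0.38 (adjusted p = 0.0084), with -0.30 and 0.08. CCND3 gave -0.34 (adjusted p = 0.0062), with -0.01 and 0.33. CCNF gave -0.34 (adjusted p = 0.045), with -0.39 and -0.05. In 17.6% of all genes this term was below 0 at the same threshold. The calls of CCNB2, CCND3 and CCNF were lost after median ratio scaling, and those of CCND1 (-0.31) and CCNE2 were kept.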

How the results depend on the processing

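Counts of called cyclins (risen, fallen) moved with scaling, with the test and with a sample left out. With SB-3CT alone the falls were kept in each scaling and lost mostly with a sample left out. Against IFNγ, SB-3CT+IFNγ gave 1 and 6, and 2 and 3 with median ratio scaling, 0 and 4 with quantile normalization and 1 and 3 without the length trend. That comparison gave 1 and 4 in the equal-variance test, and 0 to 1 risen and 5 to 6 fallen with a sample left out. SB-3CT against Control gave 1 and 2, and 3 risen at a mean FPKM of 1 or more, 2 risen with median ratio scaling, without the length trend and with robust eBayes, 1 fallen with 4 groups in one fit, 0 in the equal-variance test, and 0 to 2 with a sample left out. IFNγ against Control gave 2 and 1, and 0 fallen with each of the 3 scalings, 1 risen in the equal-variance test, and 1 to 2 risen and 0 to 1 fallen with a sample left out. SB-3CT+IFNγ against SB-3CT gave 0 and 4, and 2 risen with median ratio scaling, 1 fallen with each of the 3 scalings, 2 in the equal-variance test, and 1 to 4 with a sample left out. The interaction gave 0 and 5, and 1 and 2 with median ratio scaling, 2 below 0 with quantile normalization, and 1 above and 4 below 0 without the length trend. With a sample left out 0 to 1 were above 0, and the call of CCNF was lost in most cases. The cause was not tested.

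The replicate number as a block moved the count fallen to 0 for IFNγ against Control and to 2 for SB-3CT+IFNγ against SB-3CT, and no other count. Same-numbered samples deviated from their group means with correlations of -0.39 to 0.17. Such correlations cannot tell whether same-numbered samples were handled together.

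Signs changed as follows, also for the called falls of CCND1. Without the length trend, CCND1 against IFNγ went from -0.30 to 0.01, CCNF with SB-3CT from -0.05 to 0.01, and the CCNG2 interaction from -0.21 to 0.07. CCND3 against IFNγ became 0.21, 0.07 and 0.08 with median ratio scaling, quantile normalization and no length trend, and -0.05 to 0.02 with a sample left out, where CCNE1 ranged from -0.09 to 0.13 and CCNF with SB-3CT from -0.11 to 0.01. With IFNγ alone, CCNA2 became 0.04 (median ratio), 0.00 (quantile, and equal-variance test) and -0.08 to 0.07 with a sample left out, and CCNB2 0.03 (median ratio), 0.01 (no length trend) and -0.05 to 0.02. Against SB-3CT, in the order median ratio, quantile, no length trend, SB-3CT+IFNγ gave 0.22, 0.01 and 0.10 for CCNB1 (-0.05 to 0.00 with a sample left out), 0.20, 0.10 and 0.09 for CCND3, and 0.06, 0.07 and 0.14 for CCNG2. With median ratio scaling and no length trend it gave 0.07 and 0.04 for CCND1 (from -0.17) and 0.04 and 0.03 for CCNF (from -0.18). Depth in reads is unknown, and 3 samples a group limit the pair ratios to p of 0.1.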
